A study of Mus musculus with 3 samples.

Results

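The genes described here encode the nuclear-encoded subunits of respiratory complexes II, III and IV, cytochrome c and the mitochondrial ATP synthase. They were taken by gene name from the array files: the succinate dehydrogenase genes Sdha to Sdhd, every name beginning with Uqcr, Cyc1, Cycs, names beginning with Cox4 to Cox8, and names beginning with Atp5. The rule uses no measured value. It found 47 genes, read by 64 probes, among 27745 gene names on the array. Cox4nb and Atp5s bear such names but encode no subunit, and Cox7a2l encodes a factor that joins complexes into supercomplexes. All 3 were kept and are named as such.

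The cells were stromal cells grown from lymph nodes (strain BALB/c), the supporting cells that build the framework of the node. They received 400 pmol of a control siRNA or of siRNA against Eif4g3, in 10 ml of medium with a Lipofectamine reagent. Medium was replaced after 24 h and cells were collected at 48 h. The cells from 7 plates of each siRNA were combined and separated on a continuous 10% to 60% sucrose gradient, and the fractions were joined into a top pool, a light and a heavy polysome pool. Each of these 3 pools was hybridised to 1 array, on which Cy5 marked the Eif4g3 siRNA cells and Cy3 the control cells, all on 1 slide and without a dye swap. The comparison is thus between cells that differ in the siRNA, with the strain and the culture and transfection procedure shared. Each siRNA had its own plates. With 1 array per pool there is no replicate error: siRNA, dye and pooled culture cannot be told apart, and no test between conditions was possible. Errors given with ± come from the scanner software's error of a spot's log ratio. They were combined over the probes averaged for a gene and, for a difference, over both arrays. They cover measurement of the spots, and neither biology nor disagreement between probes. An array also reads shares of the RNA hybridised, 200 ng on each array, and not amounts. Where an mRNA comes from 1 type of cell in the culture, fewer cells of that type and less of the mRNA per cell would both lower its share and cannot be told apart.

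Respiratory complexes pass electrons from nutrients to oxygen, all but complex II pump protons across the inner mitochondrial membrane, and ATP synthase lets the protons flow back to make ATP. Complex II is also an enzyme of the tricarboxylic acid cycle, complex III hands electrons to cytochrome c, and complex IV passes them to oxygen. Nearly all the subunits are translated in the cytosol and imported, while a few core subunits of complexes III and IV and of ATP synthase are made inside the mitochondrion. Eif4g3 encodes eIF4GII, a scaffold that helps to recruit ribosomes to capped mRNAs. In a sucrose gradient an mRNA without ribosomes stays near the top, and mRNAs with more ribosomes sediment further. The ratio of the 2 colours on each array therefore compares the share that an mRNA took of the RNA in that part of the gradient, with Eif4g3 siRNA and with control siRNA, and not its amount there.

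Eif4g3 itself was lower with its siRNA on all 3 arrays, with log2 ratios of -0.43 ± 0.16 (top), -1.06 ± 0.16 (light) and -1.77 ± 0.19 (heavy). Of 12 fibroblastic stromal markers, 10 were well above background in the control channel on every array. The counts above background in the top, light and heavy pools were 0, 2 and 5 of 7 endothelial markers, 0, 3 and 3 of 8 leukocyte markers, 1, 2 and 4 of 7 epithelial markers, and 3, 5 and 5 of 6 pericyte and smooth muscle markers. The 10 stromal markers measured had median siRNA ratios of -0.16 (top), 0.01 (light) and -0.46 (heavy), with 7 of 10 below 0 in the heavy pool. Their heavy minus top ratio had a median of -0.43, from -0.71 to 0.16. In the heavy pool the median ratio was 0.18 over 2 endothelial, 0.07 over 3 leukocyte, -0.11 over 2 epithelial and -0.12 over 4 pericyte and smooth muscle markers. The part of cell makeup in the results was not tested. The top array was the dimmest: 34.8% of probes were measured, that is well above background in both channels, against 50.2% in light and 51.6% in heavy. Upper-quartile signals of the control and the Eif4g3 siRNA channel were 64.9 and 75.7 (top), 291 and 676 (light), and 1000.1 and 379 (heavy).

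Promoters of respiratory genes are known for binding sites of the nuclear respiratory factor NRF1 and of GABP, a factor of the ETS family. Stretches of them are printed as background on these genes, and a part of the promoters in the siRNA ratios was not tested. RefSeq windows on GRCm38.p6, from 250 bases before to 50 bases after the annotated start, were found for 35 of the 47 genes. The letters GCATGCG of an NRF1 site, searched on both strands, were in 8 of the 35 windows (22.9%) and in 3.64% of all 27025 windows. The ETS letters CCGGAAG, searched likewise, were in 11 windows (31.4%), against 9.12% of all. The YY1 letters ATGGCGG were in 1, that of Atp5b (2.86%, against 4.19%), and TATAAA was in 2 (5.71%, against 14.2%). The stretches that follow hold the NRF1 letters upstream of the start, in capitals, for 5 genes of complexes II and IV, ATP synthase and cytochrome c, whose differences between heavy and top ranged from 0.13 to 1.38. They read 5′ to 3′ on the gene's strand, and a longer run of capitals is the motif on both strands, overlapping.
Cox6a1, chr5:115349067-115349163, minus strand: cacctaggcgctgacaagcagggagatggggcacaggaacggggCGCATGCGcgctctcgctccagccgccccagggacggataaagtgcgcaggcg
Cycs, chr6:50566578-50566674, minus strand: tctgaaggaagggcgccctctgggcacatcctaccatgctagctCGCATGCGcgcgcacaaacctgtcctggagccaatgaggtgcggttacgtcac
Atp5k, chr5:108434400-108434492, minus strand: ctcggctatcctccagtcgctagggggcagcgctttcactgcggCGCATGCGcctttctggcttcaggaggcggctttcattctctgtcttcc
Sdhb, chr4:140961172-140961268, plus strand: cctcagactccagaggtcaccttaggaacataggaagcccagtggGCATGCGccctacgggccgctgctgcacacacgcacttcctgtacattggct
Atp5g2, chr15:102671048-102671132, minus strand: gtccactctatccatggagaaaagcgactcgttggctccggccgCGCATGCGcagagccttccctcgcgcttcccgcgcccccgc
The other 3 genes with these letters were Uqcr, Uqcrc1 and Atp5l. These genes did not respond alike: the log2 siRNA ratio in the heavy pool minus that in the top was 1.38 for Cox6a1, 1.05 for Cycs, 0.75 for Atp5k, 0.26 for Sdhb, 0.13 for Atp5g2 and -0.10 for Uqcrc1. Over the measured members the median of this difference was 0.60 with and 0.54 without the NRF1 letters, and 0.53 with and 0.54 without the ETS letters.

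Of the 47 genes, 44 were measured on all 3 arrays. The other 3 are tissue isoforms of complex IV, Cox4i2 of lung, Cox8b of muscle and Cox8c of testis, and were not well above background in either channel of any array, so they have no ratio. Those measured were 4 of 4 genes of complex II, 8 of 8 of complex III, Cycs, 15 of 18 of complex IV and 16 of 16 of ATP synthase. The members were among the bright genes of these arrays. The median of their mean log2 signal was 11.32 (top), 13.93 (light) and 14.39 (heavy), against 7.24, 8.94 and 9.25 for all measured genes.

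With Eif4g3 siRNA most of these mRNAs had a lower signal than with control siRNA at the top of the gradient and a higher one in the heavy polysomes. In the top pool 39 of 44 members had a ratio below 0, with a median of -0.33, where 49.6% of all measured genes were below 0 and the median was 0.00. In the light pool 24 were above and 20 below 0 (52.6% of all genes were above), with a median of 0.01 against 0.02 for all genes. This count depended on the loess step that removes the trend of the ratio with signal within an array: without it 37 were above and 7 below 0, with a median of 0.35. In the heavy pool 35 of 44 were above 0, with a median of 0.29, where 48.3% of all genes were above 0 and the median was -0.01. On any single array 0 members passed 2-fold. In a list of this size a count of 0 is near the share of all genes. Over all genes 0.43% were higher and 0.265% lower at 2-fold in the top, and 0.397% and 0.291% in the light. In the heavy pool the shares were 0.507% and 0.306%.

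The direction turned within the same genes. A ratio below 0 in the top and above 0 in the heavy pool was found for 31 of the 44 members, and for 21.4% of 10650 genes measured on all 3 arrays. The order top below light below heavy held for 26 members (20% of all genes), and the reverse order for 1 (18%). The place of the light pool in that order rests on the loess step: without it the order held for 16 members (9.47% of all genes), and the light median lay above the heavy one of 0.20. Taken as heavy minus top ratio, the median member difference was 0.54 and 39 of 44 were above 0 (50% of all genes). Of these, 9 passed 2-fold, where 0.812% of all genes did, and 0 were 2-fold lower, where 0.7% did. Against the spot errors, 22 of 44 differences lay at least 2 errors above 0 (8.43% of all genes) and 2 lay as far below it (7.32%). In the top pool alone 18 members were at least 2 errors below 0 (6.91% of all genes) and 1 as far above it (7.05%). In the heavy pool 13 were as far above 0 (9.65%) and 4 as far below it (12.9%): Sdha, Sdhc, Atp5a1 and Atp5b. In the light pool 5 were above (10.9%) and 4 below (8.49%), shares near those of all genes.

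**Figure D1:**
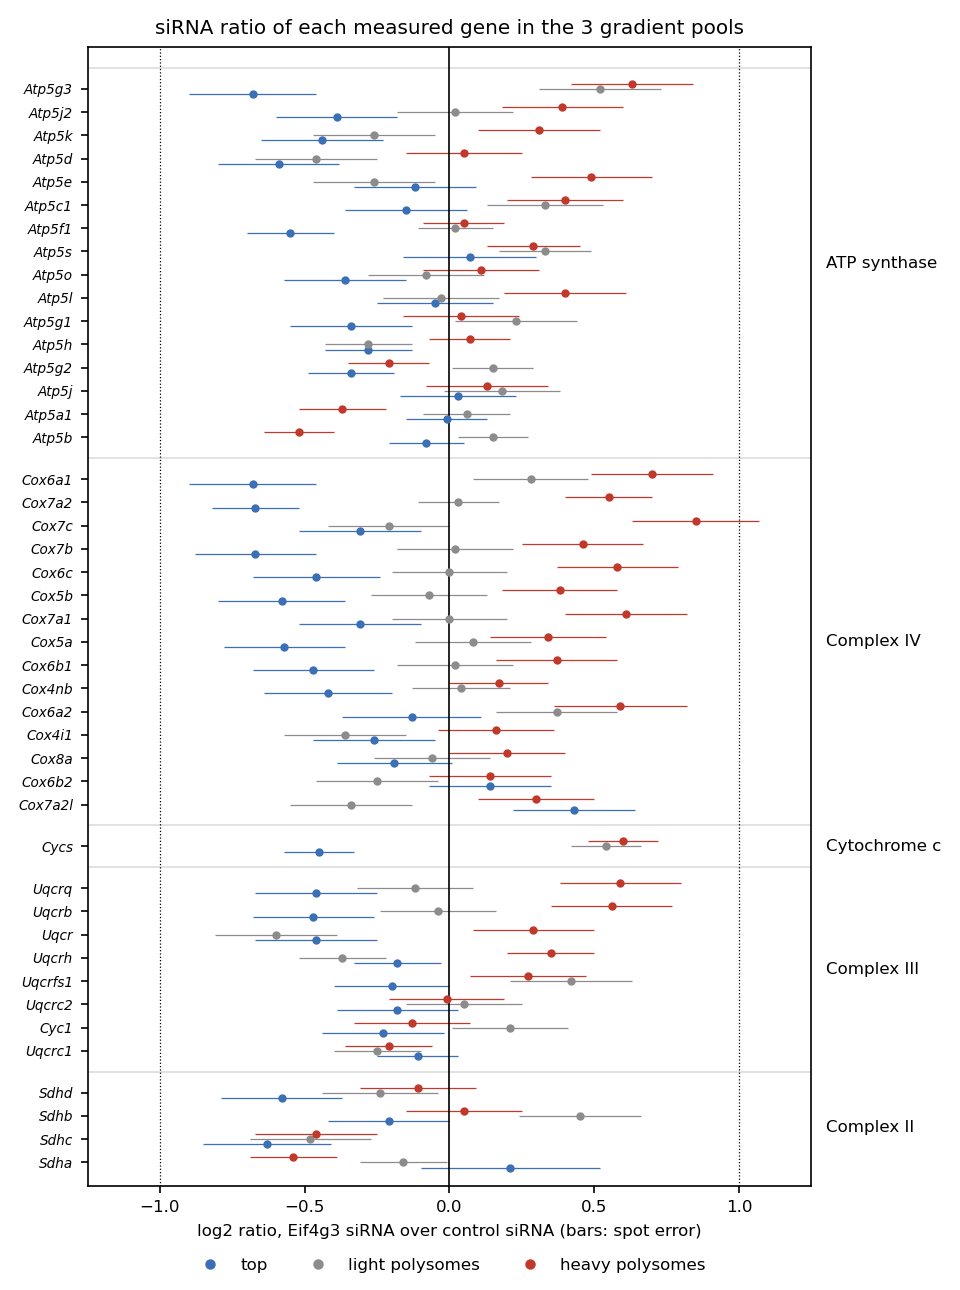
Each row is 1 of the 44 measured genes, grouped by complex and ordered by the difference between heavy and top ratio; points give the log2 siRNA ratio (Eif4g3 over control) in the top (blue), light (grey) and heavy (red) pool, bars the spot error, and dotted lines 2-fold. In 31 of the 44 genes the blue point lies left of 0 and the red point right of it, and no point reaches 2-fold.

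The members' brightness is a measured difference from other genes, so bright genes were set beside them. Among all genes at least as bright as the members' lower quartile, the median ratio was -0.03 in the top and 0.05 in the heavy pool. Their median difference between heavy and top was 0.17 (1414 genes), or 0.16 without the members, against 0.54 for the members. Within the 44 members brighter genes tended to have larger differences. Pearson's r of mean signal and difference was 0.39 and Spearman's rho 0.43, against 0.13 and 0.11 over all genes. The part of brightness in the contrasts between members was not tested. The ratios are also compressed by the background correction, more in the top than in the heavy pool. Over the member probes the slope on the software's own ratio was 0.776 (top), 0.933 (light) and 0.964 (heavy), and with the software's ratio the median difference was 0.57.

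Complex IV, cytochrome c oxidase, had the largest median difference of the complexes. Its 15 measured genes had a median ratio of -0.42 (top), 0.00 (light) and 0.38 (heavy). All 15 were above 0 in the heavy pool, or 14 of 15 with the software's ratio, and 13 of 15 were below 0 in the top. The difference between heavy and top had a median of 0.90, and 5 of the 9 members past 2-fold belong to this complex. With an offset of 0 or with the software's ratio 8 of its 15 genes passed 2-fold, with medians of 1.04 and 1.08, and the genes gained were Cox6a2, Cox6b1 and Cox7a1 under both. Among all measured genes the number 2-fold higher in heavy minus top rose too, from 87 to 201 in the first case and 301 in the second. The 5 complex IV genes past 2-fold before these changes of setting are small nuclear-encoded subunits around the catalytic core, which is made in the mitochondrion.

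Cox6a1 is the isoform of subunit VIa found outside heart and skeletal muscle, read by a probe at chr5:115606716-115606775 (mm8, minus strand). Its control signal was 61119.9 (top), 127389 (light) and 94660.1 (heavy), and its Eif4g3 siRNA signal 38203, 154737 and 153951. The siRNA channel was thus below the control at the top and above it in both polysome pools, and the ratio went from -0.68 ± 0.22 through 0.28 ± 0.20 to 0.70 ± 0.21. The difference between heavy and top was 1.38 ± 0.30, a 2.6-fold change of the ratio. Cox6a2, the heart and muscle isoform, was dim, with control signals of 299, 192 and 103 and siRNA signals of 274, 248 and 155. Its difference was 0.72 ± 0.33 and reached 1.15 when no offset was used in the background correction, so for this gene the size depended on how dim spots were treated.

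Cox7a2 is the widely expressed isoform of subunit VIIa and has 2 overlapping probes at chr9:79541092-79541163 (mm8, minus strand). Its control signals were 37586, 38005 and 21420.1 from top to heavy, and its siRNA signals 23583, 38745 and 31365. With the scaling of signals between arrays used here, the control signal was lowest in the heavy pool and the siRNA signal lowest in the top. Other scalings moved the members' control signal between pools, so trends of 1 channel across pools depend on that choice. Both probes gave the pattern, with -0.70 and -0.65 in the top and 0.51 and 0.59 in the heavy pool, and the difference was 1.22 ± 0.21. Cox7a1, the muscle isoform, had control signals of 1235, 979 and 362 and siRNA signals of 999, 982 and 552. Its ratios were -0.31, 0.00 and 0.61, and its difference of 0.92 ± 0.30 lay just under 2-fold, but was 1.08 at offset 0 and 1.15 by the software's ratio. Cox7a2l, the supercomplex factor, went another way: control signals were 16018, 6103 and 2366, siRNA signals 21645, 4821 and 2923, and the ratio was 0.43 ± 0.21 in the top. It was the only member more than 2 spot errors above 0 there, and its difference was -0.13 ± 0.29. Its only probe lists 3 RefSeq transcripts, 2 of them predicted.

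Cox7b, on the X chromosome at 102224534 to 102224593 (mm8), had control signals of 25293, 28316 and 14806 and siRNA signals of 15898, 28749 and 20324. The channels crossed between the top and the heavy pool and nearly met in the light, and the difference was 1.13 ± 0.30. Cox7c had control signals of 16026, 7276 and 3355 and siRNA signals of 12893, 6281 and 6028. On the scale used between arrays, its control signal thus dropped steadily towards the heavy pool, while the siRNA signal stayed nearly level from light to heavy. Its heavy ratio of 0.85 ± 0.22 was the highest of any member on any array, and its difference was 1.16 ± 0.30. Cox7c was also the only member past 2-fold between heavy and light, at 1.06, where 0.102% of all genes were. Cox6c had control signals of 50434, 29407 and 15636, siRNA signals of 36769, 29479 and 23412, and a difference of 1.04 ± 0.30.

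Among the other complex IV genes, Cox5b (0.97 ± 0.30) and Cox5a (0.90 ± 0.30), subunits with a single gene each, and Cox6b1 (0.83 ± 0.30) lay just under 2-fold. Cox6b1 reached 1.04 at offset 0 and 1.08 by the software's ratio. The testis isoform Cox6b2 was nearly level, with control signals of 479.8, 273 and 157, siRNA signals of 528, 229.7 and 174, and a difference of 0.01 ± 0.30. Its probe lists 2 RefSeq transcripts. Cox4i1, the general isoform of the largest nuclear subunit, had control signals of 46325, 37358 and 33400.1 and siRNA signals of 38703, 29107 and 37428. Its difference was 0.42 ± 0.29. Cox8a, the general isoform of subunit VIII, had control signals of 21116, 41838 and 17977, siRNA signals of 18499, 40211 and 20684, and a difference of 0.39 ± 0.29. Cox4nb, no subunit in spite of its name, had 0.72 ± 0.30 from 1 of its 2 probes, and 0.32 with the dim one included.

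In complex III, the cytochrome bc1 complex, the difference between heavy and top varied among the subunits, without a clear gap between groups. All 8 genes were below 0 in the top, with a median of -0.21, and 5 were above 0 in the heavy pool, with a median of 0.28. The small subunits had the larger differences. Uqcrq, at chr11:53272392-53272451 (mm8, minus strand), had control signals of 59359, 65272 and 30558, siRNA signals of 43069, 60057 and 46051, and a difference of 1.05 ± 0.30. A second, dim Uqcrq probe was not above background, and with it included the difference was 0.47. Uqcrb, at chr13:67336479-67336538 (mm8, minus strand), binds ubiquinone together with cytochrome b, and had control signals of 13243, 8829 and 5900.0 and siRNA signals of 9557, 8564 and 8725. With the scaling between arrays used here, the siRNA signal was nearly level across the gradient while the control signal declined. Such a trend within 1 channel rests on that scaling, which is weakly fixed. The difference between heavy and top ratio was 1.04 ± 0.29, or 0.91 with the software's ratio.

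The other small subunits were Uqcr, now named Uqcr11, at 0.76 ± 0.30, and the acidic hinge protein Uqcrh at 0.53 ± 0.21. The core and redox subunits had smaller differences. Uqcrfs1, the Rieske iron-sulfur protein, had 0.47 ± 0.29, and the core protein Uqcrc2 had 0.17 ± 0.29. Cyc1, cytochrome c1, had control signals of 3749, 7292 and 9969 and siRNA signals of 3204, 8425 and 9122, with a difference of 0.10 ± 0.29. The core protein Uqcrc1 had control signals of 6102, 8469 and 11415, siRNA signals of 5642, 7124 and 9868, and a difference of -0.10 ± 0.20. Both Uqcrc1 probes were below 0 on all 3 arrays. The order by role was noticed after the values were seen, and Uqcrh and Uqcrfs1 lay within their errors of each other. The small subunits were also the brighter ones in the top pool. Their control signals there ran from 13243 to 61385, against 3153 to 6102 for the core and redox subunits. The parts of role and brightness were not tested.

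Cycs, the soluble carrier between complexes III and IV and a trigger of apoptosis when released, was measured by 3 probes. Its mean control signal was 4500.4 (top), 5928 (light) and 5737 (heavy), and its siRNA signal 3303, 8646 and 8708. The ratio was -0.45 ± 0.12 (top), 0.54 ± 0.12 (light) and 0.60 ± 0.12 (heavy), so the turn lay between top and light, and the difference between heavy and top was 1.05 ± 0.17, or 0.97 with the software's ratio. The probes agreed in direction but not in size at the top. The probe at chr6:50494842-50494901 (mm8, minus strand) had -1.0, and the other two had -0.14 and -0.20. The latter 2 also list predicted transcripts, so copies of Cycs may not be told apart there.

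ATP synthase had a median of -0.31 (top), 0.04 (light) and 0.12 (heavy), and its median difference was 0.50. In the top pool 14 of its 16 genes were below 0, and 13 were above 0 in the heavy pool. The 3 genes of the proton-carrying c ring encode the same mature protein from different precursors, and they differed from each other. Atp5g3, at chr2:73709301-73709360 (mm8, minus strand), had control signals of 38786, 29034 and 32263 and siRNA signals of 24189.6, 41604 and 49977. The siRNA channel was below the control at the top and above it in both polysome pools, with ratios of -0.68 ± 0.22, 0.52 ± 0.21 and 0.63 ± 0.21 and a difference of 1.31 ± 0.30. It was the only member past 2-fold between light and top, at 1.20, where 0.318% of all genes were. Atp5g1 had control signals of 1259, 2985 and 3894, siRNA signals of 996, 3495 and 4012, and a difference of 0.38 ± 0.29. Atp5g2 had control signals of 2663, 4512 and 6918, siRNA signals of 2105, 5008 and 5965, and a difference of 0.13 ± 0.21.

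The catalytic head of ATP synthase held both genes of the complex with a difference below 0. Atp5b, the beta subunit that carries the catalytic sites, had control signals of 2102, 4366 and 9721 and siRNA signals of 1992, 4853 and 6776. The channels were close in the top and light pools and the siRNA signal was lower in the heavy pool, with a heavy ratio of -0.52 ± 0.12 and a difference of -0.44 ± 0.18. Its 3 probes disagreed there. The brightest, at chr10:127493148-127493207 (mm8, plus strand), had 0.05 in the heavy pool, and the other two had -0.90 and -0.71; with the brightest probe alone the difference was 0.21. Atp5a1, the alpha subunit, had control signals of 7286, 7839 and 14554, siRNA signals of 7245, 8169.8 and 11281, and a difference of -0.36 ± 0.21, with both probes below 0 in the heavy pool. The gamma subunit Atp5c1, the rotating shaft of the head, had 0.55 ± 0.29, the delta subunit Atp5d 0.64 ± 0.29 and the epsilon subunit Atp5e 0.61 ± 0.29.

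The membrane and stalk subunits of ATP synthase lay between. Atp5j2 (subunit f) had control signals of 18509.5, 31572 and 15212, siRNA signals of 14079, 32109.6 and 19966, and a difference of 0.79 ± 0.29. Atp5k (subunit e) had 0.75 ± 0.29 and Atp5l (subunit g) 0.46 ± 0.29. The stalk genes were Atp5f1 (0.54 ± 0.21), Atp5o (0.47 ± 0.29), Atp5h (0.35 ± 0.20) and Atp5j (0.10 ± 0.29). The non-subunit Atp5s had 0.53 ± 0.31. The probes of Atp5o and Atp5j list more than 1 RefSeq transcript each.

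Complex II, succinate dehydrogenase, had no median above 0 in the heavy pool. Its median was -0.40 (top), -0.20 (light) and -0.28 (heavy), so it stayed below 0 throughout, and its median difference was 0.22. Without loess the light median was 0.01 and the difference 0.01, while the software's ratio and an offset of 0 both gave a difference of 0.44. Sdha, the flavoprotein that oxidises succinate, had control signals of 175, 364 and 534 and siRNA signals of 202, 325 and 367, from 1 probe in the top and 2 in the others. It was the lowest member by difference, at -0.88 ± 0.38, from its only probe measured in both pools (chr13:74788700-74788759, mm8, minus strand). That probe was dim in the top. It had 0.21 in the top and -0.67 in the heavy pool, and the difference passed 2-fold under 3 alternative settings (-1.29 to -1.01). The other probe, above background only in the siRNA channel of the top, had 0.02 in the top and -0.40 in the heavy pool. With it included, when the background filter was left out, the difference stayed under 2-fold. Sdhb, the iron-sulfur subunit, had control signals of 565, 1529 and 2442 and siRNA signals of 487, 2084 and 2524, with its highest ratio in the light pool (0.45 ± 0.21) and a difference of 0.26 ± 0.30. The membrane anchors Sdhc and Sdhd were below 0 on all 3 arrays. Sdhc had control signals of 1019, 1610.5 and 1653, siRNA signals of 657, 1157 and 1201, and a difference of 0.17 ± 0.30 that was -0.04 without the within-array loess step. Sdhd had control signals of 5372, 6966 and 7490.1, siRNA signals of 3597, 5886 and 6962, and a difference of 0.47 ± 0.29.

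**Figure D2:**
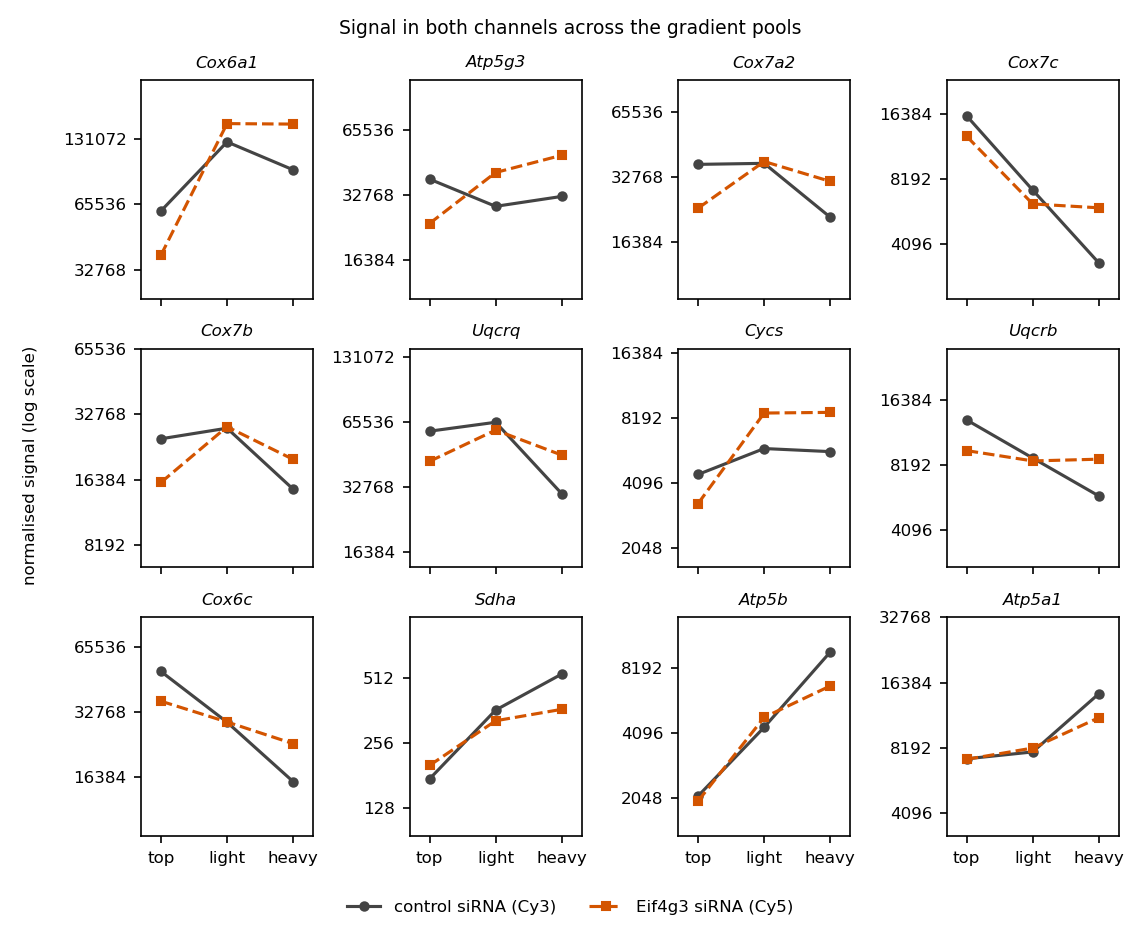
Normalised signal (log scale, each panel covering the same fold range) of control siRNA in Cy3 (grey circles) and Eif4g3 siRNA in Cy5 (orange squares) in the top, light and heavy pools, 1 array each, for the 9 members past 2-fold and for Sdha, Atp5b and Atp5a1. In the 9 members the orange line starts below the grey one and ends above it, and in the last 3 it ends below.

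The control channel by itself shows where these mRNAs lay in the gradient of control cells. After scaling of signals between arrays, the median member was -0.25 (log2, heavy over top), against -0.12 for all genes. Members 2-fold higher in the heavy pool numbered 6 (14.2% of all genes were), and 11 were 2-fold higher in the top (21.8%). The members ranged from -2.76 for Cox7a2l to 2.21 for Atp5b. By complex the median was 1.12 for complex II, -0.10 for complex III, -0.77 for complex IV and -0.18 for ATP synthase. The scale between arrays is weakly fixed: the member median of heavy over top was -1.27 and -0.68 under 2 other scalings. Light over top was 0.15 here and -0.58 and -0.21 under those scalings, so its direction was not settled.

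The position in the control gradient went with the size of the difference. The 6 members at least 2-fold higher in the heavy pool of control cells were Sdha, Atp5b, Cyc1, Atp5g2, Sdhb and Atp5g1, and their median difference of the siRNA ratio, heavy minus top, was 0.11. None of these 6 passed 2-fold. The 11 at least 2-fold higher in the top, among them Uqcrb, Cox6c and Cox7c, had a median of 0.75, and the 27 between had 0.54. Membership of these classes rests on the scaling of signals between arrays, and they were not formed under the other scalings. Over the same classes all genes had medians of -0.20, 0.10 and 0.00, in the order heavy, top and between. Over the 44 members Pearson's r was -0.44 and Spearman's rho -0.46, against -0.22 and -0.24 over all genes. These are descriptions over genes of the same arrays, and the control signal enters both measures, which by itself pushes the correlation below 0.

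**Figure D3:**
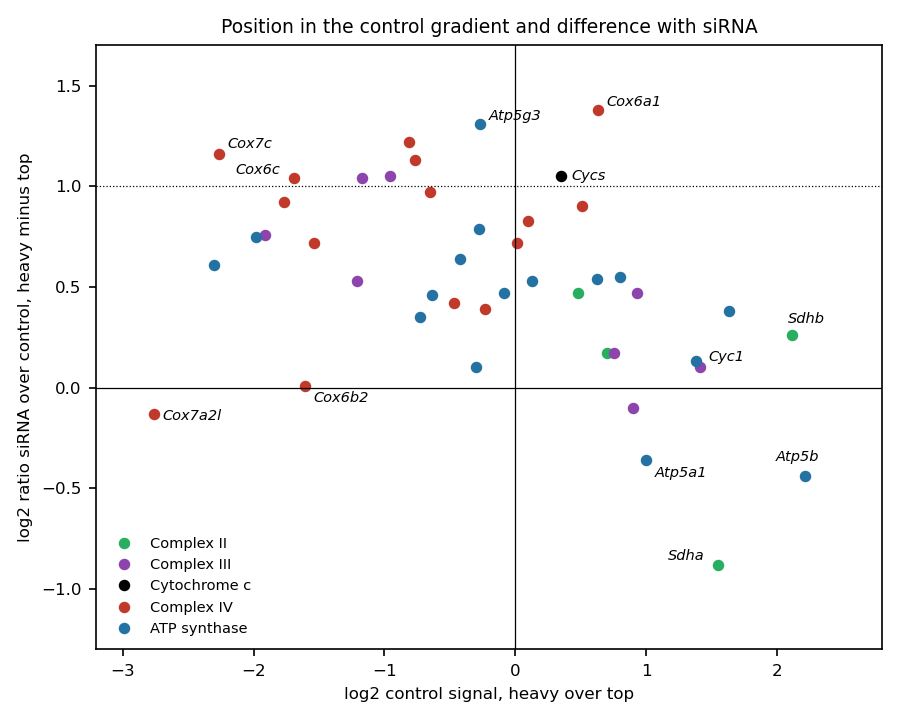
Each point is 1 of the 44 measured genes, coloured by complex, with the log2 control signal of heavy over top on the x axis and the log2 siRNA ratio in heavy minus that in top on the y axis; the dotted line marks 2-fold. The genes furthest to the right, Atp5b and Sdhb, have differences of -0.44 and 0.26, and Cox7a2l at the far left has -0.13.

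Other gene lists were set beside the members to see how far the pattern reached. Complex I, the first complex of the chain, was taken as every gene name beginning with Nduf, which also takes in assembly factors. Its list had a median difference of 0.66, with 34 of 38 genes above 0. Past 2-fold were 5, among them Ndufa1 (1.40) and Ndufa4 (1.21), a protein assigned to complex I by its name and found in complex IV. For mitochondrial ribosomal proteins the median was 0.29. Of these 74 genes, 58 had a difference above 0, and 6 passed 2-fold. Their median ran from 0.14 without loess (48 of 74 above 0) to 0.44 with the software's ratio (66 of 74). Cytosolic ribosomal proteins had -0.23, with 60 of 77 below 0, though -0.05 with the software's ratio. In the top pool they were above 0 (median 0.50, 76 of 77), opposite to the members, and in the heavy pool they had the same median as the members, 0.29.

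Genes that serve the same pathway without being subunits had medians from -0.25 to 0.10. The assembly factors of complexes II to IV and ATP synthase had a median difference of -0.02 over 17 genes, from Lrpprc (-0.39), which stabilises mitochondrial mRNAs, to Higd1a (0.87). Mitochondrial carriers and porins had -0.02 over 11 genes, with Atpif1, the inhibitor of ATP synthase, highest at 0.75. Nuclear regulators of respiratory genes had -0.01 over 9 genes, from Nrf1 (-0.36) to Tfam (0.37). The tricarboxylic acid cycle with pyruvate dehydrogenase had -0.25 over 16 genes, with Dlst and Ogdh of the oxoglutarate dehydrogenase complex lowest at -0.54 each, though the median was -0.05 with the software's ratio. Genes of electron transfer to ubiquinone and of its synthesis had 0.10 over 10 genes, from -0.13 without loess to 0.39 over the 6 genes left with bright probes only (4 of 6 above 0). The sign of these medians changed with the settings tried, except that of the tricarboxylic acid cycle. For the assembly factors they ran from -0.09 without loess to 0.24 with bright probes only. Across these 5 lists 0 genes passed 2-fold in heavy minus top, where 0.812% of all genes were higher and 0.7% lower, so in lists of this size a count of 0 is near the share of all genes. In heavy minus light 1 gene of these lists, from the tricarboxylic acid cycle, was 2-fold lower (-1.02), as were 86 of all 13686 genes measured on both arrays.

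**Figure D4:**
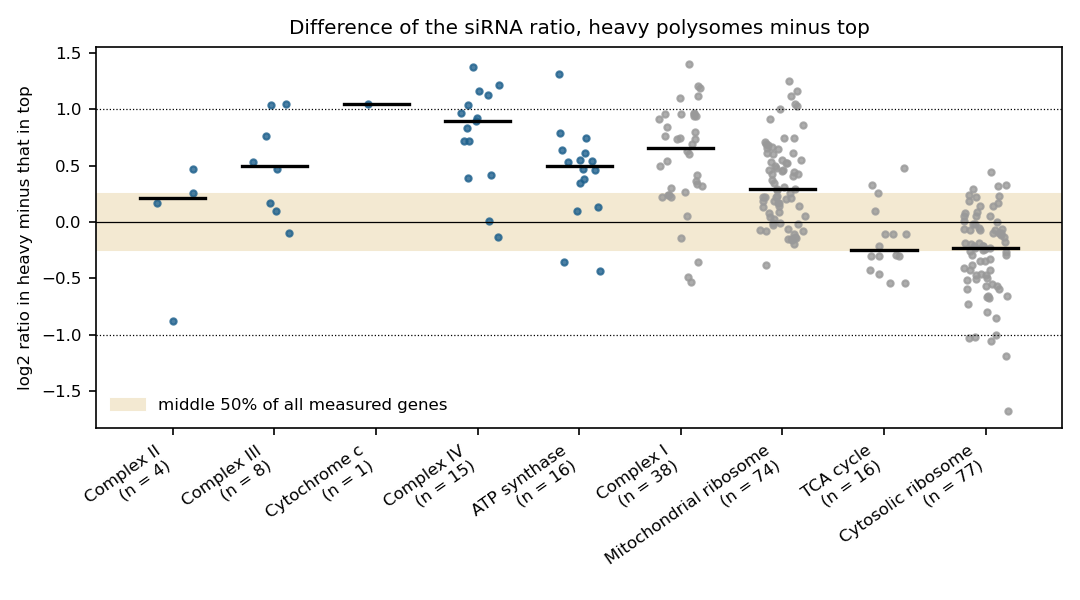
Each point is a measured gene and its log2 siRNA ratio in heavy minus that in top, for the complexes described here (blue) and for comparison lists (grey; TCA cycle includes pyruvate dehydrogenase); black bars are medians, the band holds the middle 50% of all measured genes and dotted lines mark 2-fold. The medians of complexes III (0.50), IV (0.90) and I (0.66), of ATP synthase (0.50) and of the mitochondrial ribosome (0.29) lie above the band, which ends at 0.25, and those of the tricarboxylic acid cycle (-0.25) and the cytosolic ribosome (-0.23) at its lower edge.

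The light pool did not give a firm place between top and heavy. The median difference was 0.34 for light minus top (36 of 44 above 0, 50.5% of all genes) and 0.26 for heavy minus light (33 of 44, 47.1%). Without the within-array loess step the light median moved to 0.35, the difference between light and top to 0.66 and that between heavy and light to -0.07. The differences of light minus top and of heavy minus top kept their direction under every normalization tried.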

How the data were processed

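RNA of 3 gradient pools was read on Agilent 2-colour arrays, 1 per pool. The deposited scanner files give a linear intensity per spot and channel and the software's log10 ratio of red over green with its error, from Agilent's Feature Extraction software, release 10.5.1.1, as the deposited headers state. The deposited value table of the authors is in log2 and equalled log2 of red over green processed signal within 2.8e-06. Its column medians were -0.09, -0.01 and 0.22 (top, light, heavy), so no centring beyond the software's dye normalization was found in it. Coordinates of probes are on mm8, per the file headers and columns.

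Ratios were computed with limma 3.58.1 (R 4.3.3): normexp background correction with an offset of 50, which pulls dim ratios towards 0, then loess within each array with control spots at weight 0. Spots with outlier marks (220, 170 and 183) were dropped, and no spot was saturated. Signals were scaled between arrays by Aquantile. Measured probes of a gene, well above background in both channels, were averaged, and differences use probes measured on both arrays. A gene was called at 2-fold, a log2 value of 1 or -1. The SD of the log2 ratio had a median of 0.05, 0.05 and 0.09 over repeated spots of a probe, and of 0.08, 0.16 and 0.17 over different probes of a member. The steps were tested on simulated data.

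All members may be named. Of other genes, Eif4g3 and the 2 highest and 2 lowest of each list were eligible. The members and lists were chosen with earlier results of these data known. Alternatives were the offset, the software's ratio, no loess, other filters and probe rules, and other scalings. The deposited table was compared and not otherwise used.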

Additional observations from a re-analysis of the deposited data

Results flagged for a closer look

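These values had opposite directions in the top and the heavy pool. The difference was not tested, because each pool was 1 array. The log2 siRNA ratio in heavy minus that in top was 0.54 as a median over the members, 0.50 for complex III, 0.90 for complex IV and 0.50 for ATP synthase. Among single genes it was 1.04 for Uqcrb, 1.05 for Uqcrq, 1.05 for Cycs, 1.38 for Cox6a1, 1.04 for Cox6c, 1.22 for Cox7a2, 1.13 for Cox7b, 1.16 for Cox7c and 1.31 for Atp5g3. In all 9 genes the ratio was below 0 in the top and above 0 in the heavy pool.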

How the results depend on the processing

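The members' median difference of heavy minus top kept its direction under all alternatives, from 0.46 to 0.58, and the top (-0.41 to -0.23) and heavy (0.20 to 0.30) medians kept theirs. The count of members 2-fold higher in heavy minus top ran from 8 to 12, the latter with an offset of 0. Over all genes that count moved more, from 77 without the background filter to 301 with the software's ratio. It was 201 with an offset of 0, against 87 in the setting used for the text. Of the 9 genes, Uqcrb and Cycs were under 2-fold with the software's ratio and without loess, and Uqcrq without the background filter. With the software's ratio the light median was -0.02 and 1 member, Cox6a2, passed 2-fold in the heavy pool. Without loess the light median was 0.35, light minus top 0.66 and heavy minus light -0.07. Sdha was 2-fold lower in heavy minus top, the only such member (1), with an offset of 0, the software's ratio and no loess. With the brightest probe per gene, 1 member (Cycs) was 2-fold lower in the top. Control heavy over top was -1.27 with the software's signal over its 75th percentile and -0.68 with the channel centred on its median, and light over top -0.58 and -0.21. The cause of these changes was not tested. No paired analysis was possible because each pool had 1 array and no replicate.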
